A study of Mus musculus with 5 samples.

Results

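The endoplasmic reticulum stress chaperones are 10 genes whose products fold secreted and membrane proteins in the endoplasmic reticulum or control the supply of such factors: Hspa5, Hsp90b1, Calr, Pdia4, Dnajb9, Sdf2l1, Manf, Creld2, Herpud1 and Xbp1. They were chosen by name and read as the rows of their Ensembl identifiers in all 5 deposited matrices, 10 of 27998 genes. The libraries hold bone marrow cells of mice that carry a Nes-GFP reporter, prepared from the inner bone surface, sorted as negative for CD45 and positive for CD31, frozen, thawed and counted with a droplet assay that tags each RNA molecule near its 3′ end with a unique molecular identifier (UMI). Young mice were 10 to 12 weeks old (replicates 1, 2 and 3) and aged mice were over 20 months old (replicates 2 and 3), and the series calls the libraries of one age biological replicates, with the number of mice behind each not given in the sources used here.

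The endoplasmic reticulum is where antibodies, receptor chains and granule proteins are folded before they leave the cell. When unfolded protein builds up there, the membrane sensors Ern1 (IRE1), Eif2ak3 (PERK) and Atf6 switch on the unfolded protein response: transcription of chaperones and of degradation factors rises and the entry of new protein slows. Xbp1 is the transcription factor activated when IRE1 splices its mRNA, and in the B lineage it is known for its need in antibody-secreting plasma cells. Counts near the 3′ end cannot tell the spliced from the unspliced Xbp1 mRNA.

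Many promoters of these genes carry the endoplasmic reticulum stress element, CCAAT and CCACG spaced by 9 bases of any kind, known as a site for NF-Y with ATF6 or XBP1. A second form is ATTGG and CCACG spaced by 1 base. RefSeq promoter windows (GRCm38.p6, 250 bases before to 50 after the start) were found for 9 of the 10 genes and searched on both strands. The first form was in 4 of these 9 windows (Hspa5, Hsp90b1, Calr and Creld2), against 39 of 32851 windows of the table (0.119%). The second form was in 1 of 9 (Herpud1), against 12 windows (0.0365%), and TGACGTGG was in 0 of 9, against 222 (0.676%). A match describes these letters and not a bound site. The stretches that hold the matches are shown on the strand of the gene, with each match in capitals. The Hspa5 stretch is short because the annotated gene begins before the RefSeq start, and Hsp90b1 holds the element on each strand.

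Hspa5, chr2:34772020-34772048, plus strand: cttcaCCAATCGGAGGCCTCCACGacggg
Hsp90b1, chr10:86705510-86705674, minus strand: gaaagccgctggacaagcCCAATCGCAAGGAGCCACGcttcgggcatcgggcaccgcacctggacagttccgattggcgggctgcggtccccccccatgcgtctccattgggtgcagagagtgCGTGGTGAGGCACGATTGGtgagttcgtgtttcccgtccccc
Calr, chr8:84846962-84847161, minus strand: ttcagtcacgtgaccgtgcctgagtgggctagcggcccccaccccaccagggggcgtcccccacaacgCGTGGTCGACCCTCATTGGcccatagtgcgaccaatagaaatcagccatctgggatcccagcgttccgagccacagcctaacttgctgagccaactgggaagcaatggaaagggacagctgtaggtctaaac
Creld2, chr15:88819416-88819615, plus strand: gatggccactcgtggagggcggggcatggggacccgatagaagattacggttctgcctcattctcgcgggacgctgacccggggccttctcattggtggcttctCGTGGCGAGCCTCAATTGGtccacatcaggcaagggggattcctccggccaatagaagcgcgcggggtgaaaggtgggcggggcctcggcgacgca
Herpud1, chr8:94386199-94386398, plus strand: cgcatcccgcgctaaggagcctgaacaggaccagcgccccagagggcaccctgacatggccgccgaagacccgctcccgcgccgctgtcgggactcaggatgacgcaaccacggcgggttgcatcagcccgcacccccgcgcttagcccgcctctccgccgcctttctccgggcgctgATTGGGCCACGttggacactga

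The first forms lie at -65 to -47 (Hspa5), at -212 to -194 and -107 to -89 (Hsp90b1), at -162 to -144 (Calr) and at -126 to -108 (Creld2) from the start site, and the second form at -52 to -42 (Herpud1). All 10 genes are protein-coding in GENCODE M21 on GRCm38. Hspa5 spans positions 34771970 to 34777547 of chromosome 2 (plus strand), Hsp90b1 86690209 to 86705509 of chromosome 10 (minus), Calr 84841850 to 84846934 of chromosome 8 (minus) and Herpud1 94386438 to 94395377 of chromosome 8 (plus). Sdf2l1 spans 17130138 to 17132383 of chromosome 16 (minus), Manf 106838312 to 106891979 of chromosome 9 (minus), Creld2 88819646 to 88826683 of chromosome 15 (plus) and Xbp1 5520659 to 5525893 of chromosome 11 (plus). Pdia4 spans 47796141 to 47813430 of chromosome 6 (minus) and Dnajb9 44205559 to 44210326 of chromosome 12 (minus).

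The label of the samples names endothelial cells, and the markers went against it: 1905 of 2116 kept cells were of the B lineage by their markers (8 of 8 detected) and 18 were endothelial-like. Total UMIs per library ran from 935656 to 5900751 and the median per kept cell from 1889.5 to 4212.5. Young replicate 1 stood apart, with 585 of the 716 dividing B-lineage cells, 161 of the 173 cells of a mixed myeloid cluster and 17 of the 20 neutrophil-like cells. In these last 2 classes too, 8 of 8 B-lineage markers were detected in at least 10% of cells, so that count alone does not part them. Of 12 neutrophil markers, 12 were so detected in neutrophil-like cells, 6 in the mixed myeloid cluster and 1 in the B lineage. The source of the B-lineage RNA in the myeloid classes was not tested. Both libraries of replicate 2 had 0 UMIs of Xist and 224 and 284 of Y-linked genes, while the other 3 had Xist and at most 1 Y-linked UMI. Of all deposited barcodes 26 were shared between libraries, 5 of them among kept cells. Clusters were made without the 10 genes and the other endoplasmic reticulum genes used here. The 1189 non-dividing B-lineage cells formed 5 clusters, called pro-B-like, Cd2 pre-B-like and immature-B-like from their markers, with 2 left unnamed: cluster 0, led by Cd74 and H2-Aa, and cluster 7, led by Rpl3l, Eif2s3y and Il16. Cd2 was the leading gene of the Cd2 pre-B-like cluster, but the count of detected markers of that stage does not set it apart. Of these 6 markers 4 were detected in at least 10% of its cells, and 4 also in cluster 0. Levels are CPM, the UMIs of a gene scaled to a common total over the summed UMIs of a class in a library. They are not scaled by length, and so are compared between cells and not between genes. Summed counts cannot tell fewer expressing cells from less RNA per cell.

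In dividing B-lineage cells the group did not move together. Sdf2l1, Manf and Creld2 rose, Xbp1 fell, and for the chaperones Hspa5, Hsp90b1 and Calr and the isomerase Pdia4 no difference passed the test. Sdf2l1, which works with Hspa5 and its co-chaperones, was 3.25-fold higher in dividing than in non-dividing cells, and Manf, a secreted and reticulum-resident survival factor, was 2.26-fold higher. The comparison was made within libraries by edgeR's quasi-likelihood test on summed UMIs over 5263 genes, with the library as a term and Benjamini-Hochberg adjustment, and called 3 of the 10 genes higher and 1 lower. Of all genes tested 25.5% were called higher and 23.5% lower, so these shares are near the background. The median log2 fold change of the 10 genes was 0.08, against -0.03 over all genes tested.

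**Figure D1:**
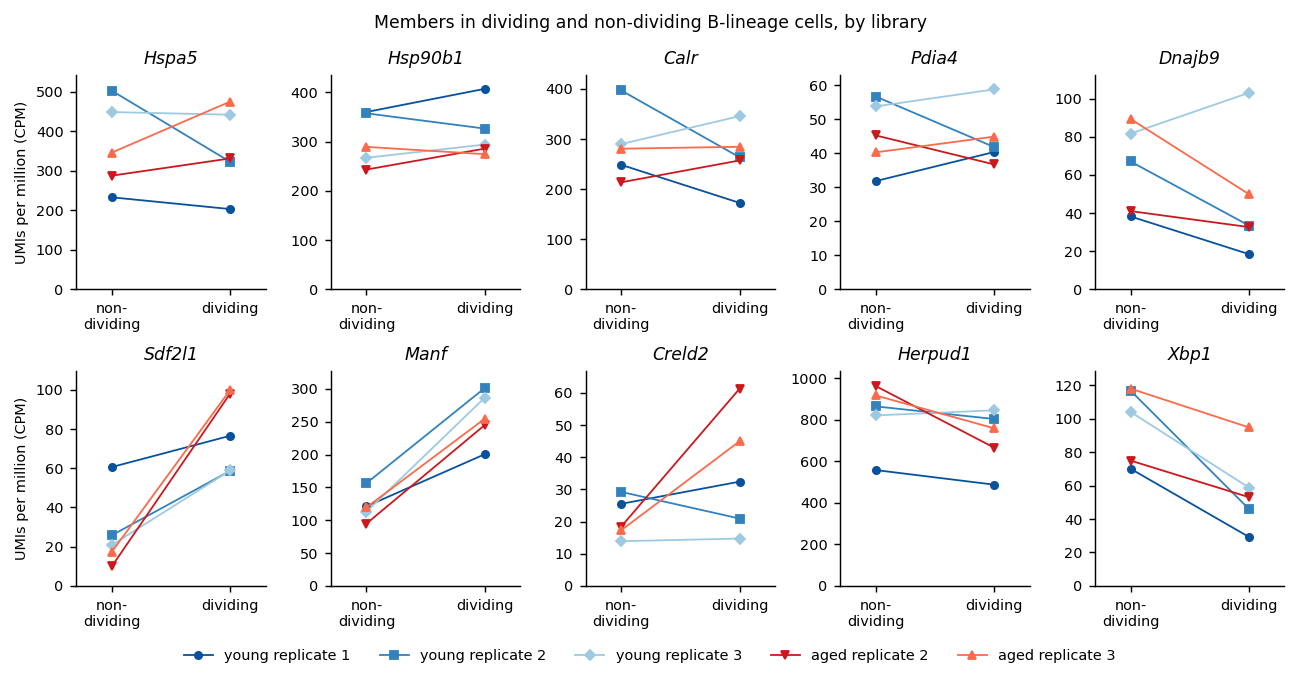
Level of each of the 10 genes (CPM) in non-dividing and dividing B-lineage cells, 1 point per library joined by a line. Manf and Sdf2l1 are higher in dividing cells in 5 of 5 libraries and Xbp1 is lower in 5 of 5, and the lines of Hspa5 and Calr cross.

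In the order young replicates 1, 2 and 3 and aged replicates 2 and 3, Sdf2l1 stood at 60.6, 25.8, 20.8, 9.91 and 17.3 CPM in non-dividing cells and at 76.6, 58.6, 58.9, 98.1 and 99.9 CPM in dividing cells. The counts behind these were 19, 15, 12, 7 and 12 UMIs and 248, 14, 8, 24 and 20 UMIs. The level was higher in dividing cells in 5 of 5 libraries, and of the 5 non-dividing values only that of young replicate 1 reached the dividing range. The log2 fold change was 1.70 ± 0.31 (SE, n = 5 libraries, edgeR adjusted p = 8.81e-05), and it ran from 1.34 to 2.23 when 1 library was left out. The call ended under a rule that takes each B-lineage cell as dividing where at least 2 of 10 cell cycle genes had a UMI after thinning, so that cells of the dividing clusters that miss it count as non-dividing: the log2 fold change was then 0.10. In non-dividing cells the summed neutrophil markers were at 261, 1.72, 193, 14.2 and 109 CPM in the same library order, and in dividing cells at 228, 4.19, 125, 20.4 and 129.9 CPM, 10 and 12 of 12 markers having a UMI. Neutrophil-like cells of young replicate 1 held 476 CPM of Sdf2l1, and the part of such RNA in the values above was not tested.

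Manf showed the steadiest difference. It was at 121, 156, 113, 94.9 and 119.6 CPM in non-dividing and 201, 302, 287, 245 and 255 CPM in dividing cells. Every dividing value lay above every non-dividing value. The log2 fold change was 1.18 ± 0.13 (SE, n = 5, edgeR adjusted p = 1.71e-07), it ran from 1.12 to 1.26 without 1 library, and Manf was the one gene still called higher under the rule per cell (0.68). With every cell thinned to 1000 UMIs Manf was also called higher, and Sdf2l1, Creld2 and Pdia4 then had too few counts to be tested. Creld2, an isomerase-like protein with a calcium-binding module, was at 25.5, 29.2, 13.9, 18.4 and 17.3 CPM in non-dividing and 32.4, 20.9, 14.7, 61.3 and 45.0 CPM in dividing cells, higher in 4 of 5 libraries. Its ranges overlapped, its dividing counts were as low as 2 UMIs, and its call (log2 fold change 0.85 ± 0.33, adjusted p = 0.0361) was lost with DESeq2 (0.79, adjusted p = 0.169), no scaling beyond the total (0.73), clusters at resolution 1.2 (0.78) and the rule per cell (0.79), and without either aged library (0.51 without replicate 2, 0.68 without replicate 3), and it had too few counts for a test without young replicate 1.

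Xbp1 went the other way. It was at 70.2, 117, 104, 75.0 and 118 CPM in non-dividing and 29.3, 46.1, 58.9, 53.1 and 94.9 CPM in dividing cells. The dividing value was the lower one in 5 of 5 libraries, and the ranges overlapped through aged replicate 3. The log2 fold change was -0.75 ± 0.20 (SE, n = 5, edgeR adjusted p = 0.00375), with -0.93 to -0.62 when 1 library was left out. It was not called under the rule per cell (-0.54) or with thinned cells (-0.67). The summed plasma cell markers, a list without Xbp1, were at 1422, 1437, 1454, 1213 and 1031 CPM in non-dividing and 835, 896, 647, 736 and 559 CPM in dividing cells. Of its 10 markers 9 had a UMI in the first and 8 in the second class, with Jchain and Tnfrsf17 at 0 in dividing cells. Counted as a UMI in at least 10% of cells, the order was the other way: 3 of 10 in non-dividing and 5 of 10 in dividing cells. Whether plasma cells are among these cells, and their part in the Xbp1 difference, was not tested.

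Hspa5 (BiP), the main Hsp70 of the reticulum, was at 233, 502, 448, 287 and 346 CPM in non-dividing and 203, 322, 441, 331 and 474 CPM in dividing cells. Young replicate 1 was the lowest library in both classes, and the ranges overlapped almost fully. Hsp90b1 (GRP94), the Hsp90 of the reticulum, was at 360.3, 358, 267, 244 and 289.6 and 407, 327, 294, 286 and 275 CPM, and Calr, a calcium-binding chaperone of glycoproteins, at 249, 397, 290.0, 214 and 281 and 173, 264, 346, 257 and 285 CPM. Log2 fold changes were 0.06 ± 0.13 for Hspa5, 0.18 ± 0.12 for Hsp90b1 and -0.04 ± 0.14 for Calr (SE, n = 5, edgeR adjusted p = 0.746, 0.224 and 0.816). Calr was called lower under the rule per cell (-0.63). Pdia4, a disulfide isomerase, was at 44.6 ± 8.51 CPM in dividing and 45.6 ± 10.1 CPM in non-dividing cells (SD, n = 5). It was higher in dividing cells in 3 libraries and lower in 2, and the difference within libraries did not pass (log2 fold change 0.09 ± 0.23, edgeR adjusted p = 0.767).

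Dnajb9 (ERdj4), a J-domain co-chaperone of Hspa5, was lower in dividing cells in 4 of 5 libraries, at 38.3, 67.1, 81.6, 41.1 and 89.3 CPM in non-dividing and 18.5, 33.5, 103, 32.7 and 49.9 CPM in dividing cells. The exception was young replicate 3, and the difference did not pass (log2 fold change -0.47 ± 0.24, edgeR adjusted p = 0.110) unless that library was left out (-0.72, adjusted p = 0.023). Herpud1, a membrane protein that helps pass misfolded proteins to degradation, was at 558, 865, 822, 963 and 918 CPM in non-dividing and 488, 804, 846, 666 and 759 CPM in dividing cells. It was lower in dividing cells in 4 of 5 libraries, most in aged replicate 2, and the difference did not pass (log2 fold change -0.12 ± 0.10, adjusted p = 0.359). All 10 genes summed stood at 2170 ± 326 CPM in dividing and 2153 ± 307 CPM in non-dividing cells (SD, n = 5). Within libraries the sum was higher in dividing cells in 3 and lower in 2, with log2 ratios from -0.21 (young replicate 2) to 0.18 (young replicate 3).

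**Figure D2:**
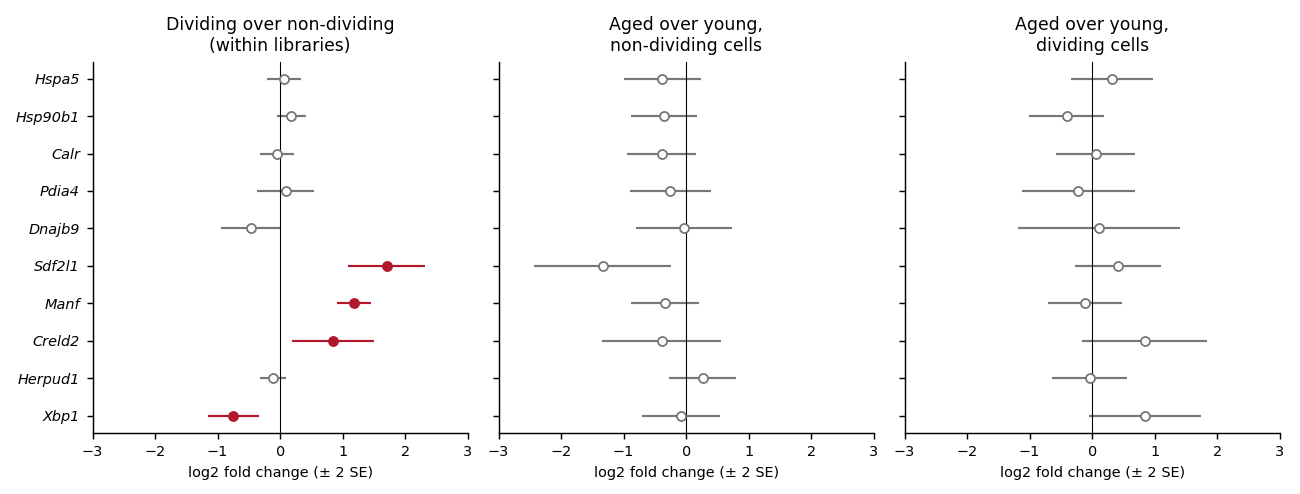
Log2 fold change of the 10 genes with bars of 2 standard errors, for dividing over non-dividing cells and for aged over young non-dividing and dividing cells, filled where adjusted p was under 0.05. For dividing over non-dividing cells, Sdf2l1 (1.70), Manf (1.18) and Creld2 (0.85) lie above 0 and Xbp1 (-0.75) below it and are filled, and no point of the age panels is filled.

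Shares of cells with a UMI followed depth as well as level. Sdf2l1 had a UMI in 25.6% of dividing cells (95% exact binomial interval 22.4 to 28.9) and 4.63% of non-dividing cells (3.50 to 5.98), at median depths of 4348 and 2244 UMIs. With each cell thinned to 1000 UMIs, the number that every kept cell reaches, the shares were 5.17% (3.66 to 7.05) and 1.85% (1.16 to 2.79). Manf went from 61.0% and 22.0% to 18.9% and 10.7% after thinning. Both kept the order of their CPM. Xbp1 was in 16.8% and 19.1% of cells before and in 3.49% and 8.92% after thinning, the order of its CPM. Creld2 was in 16.1% and 4.46% before and in 2.79% (1.71 to 4.28) and 1.93% (1.23 to 2.89) after thinning, close to the level of single UMIs. No class known to lack these genes was at hand to set a background. For Sdf2l1 the lowest share before thinning was that of Cd2 pre-B-like cells, 1.94% (0.716 to 4.18) at a median of 2294 UMIs and 1.29% after thinning, and whether those UMIs are free RNA was not tested. All intervals cover counting error only.

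The UMIs of the group were spread over the cells rather than held by few. The 10% of cells with most member UMIs per UMI held 7.92% to 16.8% of the group's UMIs in the dividing cells of the 5 libraries and 18.1% to 26.7% in the non-dividing cells. The same cells held 4.61% to 8.88% and 7.58% to 10.2% of all UMIs. In non-dividing cells, in the order young replicates 1, 2 and 3 and aged replicates 2 and 3, plasma cell markers were at 1129.7, 1769, 1214, 1151 and 1001 CPM in these top cells and 1455, 1403, 1473, 1219 and 1034 CPM in the rest. They were higher in the top cells in young replicate 2, the library with the highest share, and lower in the other 4. Among dividing cells, in the same order, these markers were at 767, 1182, 1347, 971 and 450 CPM in the top 10%. The remaining dividing cells held 840, 882, 603, 717 and 570 CPM. Here the top value was the lower one for young replicate 1 and for aged replicate 3, and the higher one elsewhere. These top dividing cells numbered 58, 2, 3, 3 and 4. The top 1% of non-dividing cells were only 1, 2, 3, 2 and 3 cells in the same order. In these few cells the plasma cell markers were at 2048, 2427, 2661, 2099 and 766 CPM. These values were above the rest in 4 of 5 libraries and below it in aged replicate 3, each from very few cells. The part of the plasma cell markers in the levels of the group was not tested.

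Among dividing cells, cluster 4, led by Nrgn, Ung and Cdca7, differed from cluster 2, led by Fbxo5, Esco2 and Neil3. Calr was 1.03 ± 0.19 log2 units higher and Herpud1 0.70 lower in cluster 4 (SE of the latter 0.16; edgeR adjusted p = 2.90e-06 and 0.000176, 3 libraries with at least 10 cells of each). Over the 1389 genes tested 23.5% were called higher and 21.7% lower, and of the 10 genes 5 had enough counts, 1 called in each direction. Calr was at 128, 191 and 224 CPM in cluster 2 and at 230.0, 478 and 381 CPM in cluster 4 in young replicates 1 and 3 and aged replicate 3, the higher value in cluster 4 each time. Herpud1 was at 641, 1146 and 1013 CPM in cluster 2 and at 358.5, 651 and 576 CPM in cluster 4. In each library cluster 4 held the lower value. Sdf2l1 was too sparse for this fit, at 52.8, 38.2 and 92.1 CPM in cluster 2 and 107, 79.7 and 134 CPM in cluster 4. With no filter on low counts, an alternative added after seeing the data, it was called higher in cluster 4 (log2 fold change 1.15). Cluster 6, led by Ube2c, Cenpf and Cdc20 and almost wholly from young replicate 1, held Calr at 106 CPM, Sdf2l1 at 41.8 CPM and Herpud1 at 549.9 CPM in that library.

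Across the non-dividing stages the genes followed different courses. Herpud1 was lowest in pro-B-like cells, Hsp90b1 had its lowest mean in cluster 7 and its highest in immature-B-like cells, and Sdf2l1 had its highest mean in immature-B-like cells, which held 24 of its 65 UMIs in non-dividing cells. The stages are given in the order pro-B-like, cluster 7, Cd2 pre-B-like, cluster 0 and immature-B-like, and the place of the unnamed clusters in development is not known from these data. Libraries were spread unevenly over the clusters. Of 309 Cd2 pre-B-like cells, 121 came from young and 90 from aged replicate 2. Of 388 cells of cluster 0, 133 came from young and 175 from aged replicate 3. The Y-linked Eif2s3y was among the leading genes of Cd2 pre-B-like cells and of cluster 7. The part of library or sex in these clusters was not tested. In the F test over the 5 stages (23 library and stage sums, 2567 genes) 4 of 7 tested members passed, where 39.9% of all genes tested did. Adjusted p-values by edgeR were 1.47e-12 for Herpud1, 2.98e-07 for Hsp90b1, 0.00817 for Manf and 0.0473 for Dnajb9, and 0.114 for Hspa5, 0.158 for Calr and 0.499 for Xbp1. Herpud1 and Hsp90b1 passed in every alternative run, while Manf lost its call in 5 alternatives and Dnajb9 in 11 of 12. The other 3 members, Pdia4, Creld2 and Sdf2l1, had too few counts for the fit.

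**Figure D3:**
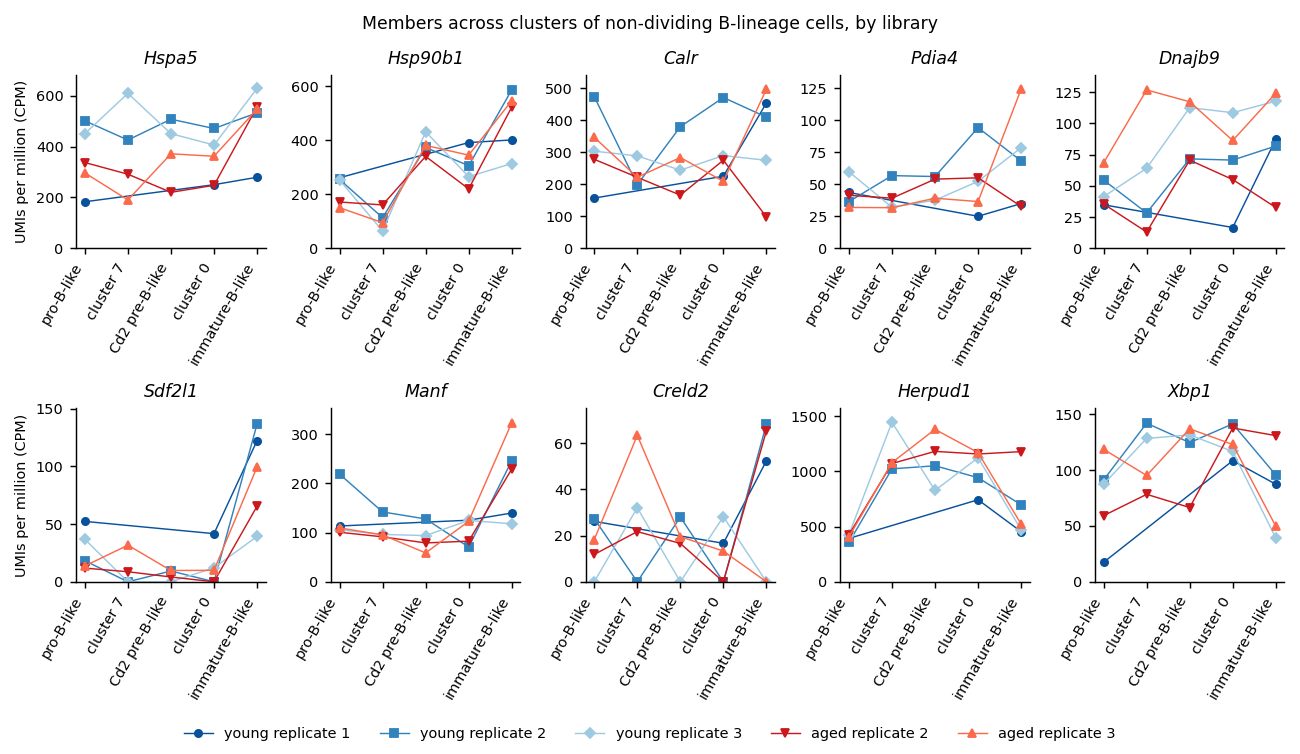
Level (CPM) of the 10 genes in the 5 non-dividing stages, 1 point per library with at least 10 cells, points of a library joined by a line. Herpud1 lies between 356 and 428 CPM in pro-B-like cells and at 827 CPM or more in every library of cluster 7 and of the Cd2 pre-B-like cells.

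Herpud1 was at 392, 356, 428, 426 and 406 CPM in pro-B-like cells of young replicates 1, 2 and 3 and aged replicates 2 and 3. In the 4 libraries other than young replicate 1 it was at 1022, 1444, 1070.1 and 1079 CPM in cluster 7 and 1049.8, 827, 1180.2 and 1379 CPM in Cd2 pre-B-like cells. The pro-B-like values were all below those of both these clusters. In cluster 0 the 5 libraries stood at 742, 942, 1123, 1156 and 1169 CPM and in immature-B-like cells at 454, 697, 471, 1178 and 522 CPM, where aged replicate 2 stood far above the rest. Herpud1 rose by 1.29 ± 0.17 log2 units from pro-B-like to cluster 7 (edgeR adjusted p = 1.62e-08; 5.69% of genes were called higher), and 1 of 7 members was called. It fell by 0.58 on the log2 scale from cluster 0 to immature-B-like cells (SE 0.17, adjusted p = 0.0195; 3.04% of genes were called lower), a call lost in 5 of 15 alternatives, among them leaving out aged replicate 3 (-0.53) or young replicate 3 (-0.54). Of the 125 cells of cluster 7, 82 came from aged replicate 2 and 24 were marked as doublets. The first call was kept with doublets left out.

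Hsp90b1 was at 262, 255, 253, 172 and 151 CPM in pro-B-like cells and at 114, 64.2, 161 and 95.2 CPM in cluster 7 of the 4 libraries. Cd2 pre-B-like cells of these libraries held 374, 432, 341 and 381 CPM, above cluster 7 in each. Cluster 0 was at 392, 306, 266, 220.3 and 346 CPM and immature-B-like cells at 402, 587, 314, 523 and 547 CPM, above the pro-B-like value of the same library in 5 of 5. Hsp90b1 rose by 1.43 ± 0.27 log2 units from cluster 7 to Cd2 pre-B-like cells (edgeR adjusted p = 0.000104; 3.54% of genes called higher), a call lost only with cells of at least 2000 UMIs (0.90) among the 15 alternatives. It rose by 0.66 ± 0.22 from cluster 0 to immature-B-like cells (adjusted p = 0.0477; 3.97% called higher). The last call was near the threshold and was lost in 13 of 15 alternatives, among them DESeq2 (adjusted p = 0.0592) and leaving out aged replicate 2 (0.57), aged replicate 3 (0.63), young replicate 2 (0.47) or young replicate 3 (0.58). Between Cd2 pre-B-like cells and cluster 0 edgeR called 0 of 7 members (0 had an unadjusted p under 0.05 and DESeq2 called 0), against 117 of all 2567 genes.

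Between the ends, immature-B-like over pro-B-like cells, all 7 tested members had values above 0, with a median log2 fold change of 0.74 against -0.01 over all genes. Of these 3 were called higher, where 12.6% of all genes were: Hsp90b1 (1.18 ± 0.22, edgeR adjusted p = 1.55e-05), Herpud1 (0.74 ± 0.18, 0.000969) and Manf (0.74 ± 0.27, 0.0381). With no filter on low counts Herpud1 was at 0.53 and not called. Manf was at 113, 219, 106, 101 and 109.5 CPM in pro-B-like and 139.7, 246, 118, 229 and 323 CPM in immature-B-like cells, higher in 5 of 5 libraries with overlapping ranges, and lost its call in 8 of 14 alternatives, among them DESeq2 (log2 fold change 0.75, adjusted p = 0.0563), cells of at least 2000 UMIs (0.31) and leaving out aged replicate 2 (0.68), aged replicate 3 (0.48) or young replicate 3 (0.76). Hspa5 was at 183, 501, 451, 337 and 297 and 279, 533, 629, 556 and 547 CPM, also higher in 5 of 5 libraries, and stopped short of the threshold (0.51 ± 0.20, adjusted p = 0.0535). Dnajb9 stood at 1.06 ± 0.44 (adjusted p = 0.0738), Calr at 0.24 ± 0.24 and Xbp1 at 0.10 ± 0.39.

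Sdf2l1 was at 52.3, 18.2, 36.8, 11.8 and 13.7 CPM in pro-B-like and 122, 137, 39.3, 65.4 and 99.4 CPM in immature-B-like cells, the latter from 7, 10, 1, 2 and 4 UMIs. The immature value was the higher one in 5 of 5 libraries, by counts as low as 1 UMI. In the stages between, means over libraries were 10.1 CPM in cluster 7, 5.82 CPM in Cd2 pre-B-like cells and 12.7 CPM in cluster 0. With no filter on low counts the difference between the ends was 1.65 ± 0.47 log2 units (edgeR adjusted p = 0.0124). In the other alternatives where it was tested it lay between 1.81 and 2.19 and passed in all but the one with cells of at least 2000 UMIs (adjusted p = 0.103). Plasma cell markers in immature-B-like cells were at 751, 1339, 1454, 1047 and 870.0 CPM, with 6 of 10 having a UMI and Jchain, Prdm1, Tnfrsf17 and Fkbp11 at 0.

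Pdia4 and Creld2 also had too few counts for the stage test. Pdia4 had means over libraries from 39.9 CPM in cluster 7 to 67.8 CPM in immature-B-like cells, and Creld2 from 11.6 CPM in cluster 0 to 37.2 CPM in immature-B-like cells, with 0 UMIs in at least 1 library of each stage. Xbp1, with a test and no call, had means from 74.8 ± 38.3 CPM in pro-B-like to 125 ± 13.9 CPM in cluster 0 cells (SD, n = 5).

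Age was the contrast of the study's labels. In non-dividing cells edgeR called 0 of 6486 genes and so 0 of 10 members (0% of genes called; 133 genes and 1 member had an unadjusted p under 0.05, and DESeq2 called 0). In dividing cells it called 0 of 3876 (0%; 162 genes and 0 members under 0.05, DESeq2 0). Of the 10 members 9 had values below 0 in aged non-dividing cells, with a median of -0.35 against -0.01 over all genes, and in dividing cells the median was 0.08. Sdf2l1 had the lowest p in non-dividing cells (log2 fold change -1.33 ± 0.55, adjusted p = 0.998). Its aged values, 9.91 and 17.3 CPM, lay below the 3 young ones. Within each stage edgeR also called 0 genes at an adjusted p under 0.05: 3251 genes were tested in pro-B-like cells (86 under 0.05 unadjusted), 522 in cluster 7 (24), 2945 in Cd2 pre-B-like cells (71), 2194 in cluster 0 (41) and 682 in immature-B-like cells (21). Hspa5 was at 508, 451, 220.3 and 372 CPM in Cd2 pre-B-like cells and 426, 609.5, 291 and 190.3 CPM in cluster 7 of young replicates 2 and 3 and aged replicates 2 and 3, where both aged values were below both young ones and neither difference passed (-0.80 ± 0.31 and -0.94 ± 0.35, adjusted p = 1.00 and 0.794). Cluster 7 held only 11, 15, 82 and 16 cells in these libraries. In the other stages Hspa5 was at -0.31 ± 0.34 (pro-B-like), -0.18 ± 0.36 (cluster 0) and 0.20 ± 0.43 (immature-B-like), so the direction was not shared by all stages. Hsp90b1 in pro-B-like cells also had an unadjusted p under 0.05 (-0.72 ± 0.33) and did not pass.

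The difference between dividing and non-dividing cells was itself compared between ages. In this interaction 1 of 5263 genes was called (0.019%) and 0 of 10 members (197 genes and 3 members had an unadjusted p under 0.05, and DESeq2 called 0). Sdf2l1 came nearest: the dividing excess was 2.01 ± 0.49 log2 units larger in aged libraries (edgeR adjusted p = 0.702). Its dividing level exceeded the non-dividing one in all 5 libraries, least in young replicate 1 (log2 ratio 0.30). Neutrophil markers were highest in that library. The next smallest ratio, 1.19, was that of young replicate 2, where these markers were lowest. The part of neutrophil RNA in the Sdf2l1 interaction was not tested. Creld2 followed with 1.44 ± 0.59 (adjusted p = 1.00).

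The rest of the pathway, from 7 lists of other genes chosen with earlier results of these data known, held calls in both directions between dividing and non-dividing cells. All 7 tested heat shock genes were called higher (7 of 12 listed had enough counts, median log2 fold change 0.99). Among them were Hsp90aa1 (1.37 ± 0.10, edgeR adjusted p = 2.07e-10) and Hspa8 (0.99 ± 0.10, 1.52e-08), the inducible Hsp90 and the constitutive Hsp70 of the cytosol. This list is mostly of cytosolic chaperones but also holds Hspd1 (1.13) and Hspe1 (0.69), the chaperonins of mitochondria. Of 13 tested genes of folding in the reticulum 5 were called higher and 2 lower (median 0.31), led by the prolyl isomerase Fkbp2 (1.73 ± 0.17, 1.52e-08) and the disulfide isomerase P4hb (1.10 ± 0.26, 0.00133). Of 12 tested genes of degradation from the reticulum 0 were called higher and 5 lower (median -0.38), with Selenos (-0.92 ± 0.16, 5.01e-05) and the ubiquitin-conjugating Ube2g2 (-0.89 ± 0.19, 0.000567) of smallest p. Of 6 tested sensors and their factors 0 were higher and 2 lower, the kinase Eif2ak3 (-1.46 ± 0.26, 7.25e-05) and the protease Mbtps1 (-0.81 ± 0.23, 0.00561), which cleaves Atf6. These lists are read against 25.5% and 23.5% of all genes called higher and lower and a median of -0.03.

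Translocon and early secretion genes were called in both directions, 12 higher and 4 lower of 30 tested (median 0.20). Rpn2, a subunit of the complex that attaches sugars, rose (1.69 ± 0.20, edgeR adjusted p = 2.68e-07), and Sec63, the translocon partner that recruits Hspa5, fell (-1.77 ± 0.14, 2.76e-10). Of 9 tested integrated stress response genes 2 were higher and 1 lower (median 0.00): Mthfd2 (1.76 ± 0.17, 1.47e-08) and Psat1 (2.09 ± 0.24, 1.91e-07), enzymes of one-carbon and serine metabolism, rose, and Ppp1r15a, which reverses the block of translation, fell (-1.03). Of 5 tested reticulum calcium and membrane genes 2 were higher and 1 lower (median -0.29), the calcium-binding Calu (1.44 ± 0.27, 0.000119) and the calcium pump Atp2a2 (0.93 ± 0.25, 0.00410) among the higher.

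**Figure D4:**
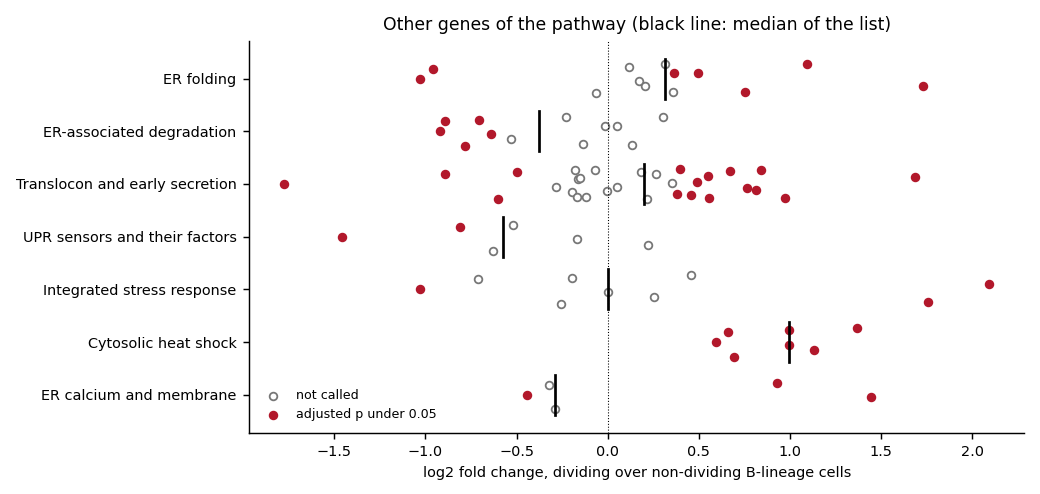
Log2 fold change of each tested gene of the 7 pathway lists in dividing over non-dividing B-lineage cells, with filled points for adjusted p under 0.05 and a bar at the list median. All 7 heat shock genes lie above 0, and all 5 called degradation genes lie below it.

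From pro-B-like to immature-B-like cells, 12.6% of all genes tested were called higher and 12.4% lower. Fewer genes of these lists had enough counts for this test, so the numbers called are not set against those for division. Of 2 tested sensors and their factors 1 was called higher. Derl1 and Syvn1, a channel component and the ubiquitin ligase of reticulum degradation, were the 2 called of 7 tested on their list, both higher (0.93 and 1.12, edgeR adjusted p = 0.0298 and 0.0397). On the translocon list 5 of 23 were higher and 2 lower, with Tram1 (1.49, 4.46e-09) and Sec63 (-1.26, 0.000108) of smallest p. Of the 7 heat shock genes 2 were higher, Hspe1 (0.90, 0.000746) and Hsp90aa1 (0.61, 0.0315), and of the 5 stress response genes 1 was, Ddit3 (0.81, 0.0284), which encodes CHOP; Eif4ebp1 did not pass (-0.48). None of 5 folding genes was called (Ppib -0.68, Pdia3 -0.59) and none of 3 calcium genes (Atp2a3 0.74, Sdf4 -0.39). For age, edgeR called 0 genes of any list in either class, DESeq2 called 0 of all genes, and the listed gene of smallest p was Eif4ebp1 in dividing cells (1.29 ± 0.34, adjusted p = 0.861).

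Neutrophil-like cells held a different pattern, with the chaperones Calr, Hspa5 and Hsp90b1 high and Herpud1 low, and the other myeloid cells shared it in part. Neutrophil-like cells, led by S100a8, S100a9 and Camp, numbered 20, of which 17 were in young replicate 1, so the levels are those of 1 library with counting intervals and no test. Calr stood at 1463 CPM (95% exact Poisson interval 1333 to 1602) in these 17 cells, against 249 CPM (197 to 310.4) in non-dividing and 173 CPM (159 to 188) in dividing B-lineage cells of the same library. Sdf2l1 stood at 476 CPM (403 to 558), against 60.6 (36.5 to 94.6) and 76.6 (67.3 to 86.7). Manf stood at 533 CPM (455 to 619), against 121 (85.8 to 166) and 201 (186 to 217). None of these intervals overlapped between the neutrophil-like and the B-lineage cells. Hspa5 was at 734 CPM (643 to 835) and Hsp90b1 at 719 CPM (628 to 818), above the B-lineage levels of 203 to 233 and 360.3 to 407 CPM. Pdia4 was at 117 CPM (82.1 to 161), Creld2 at 75.7 CPM (48.5 to 113) and Xbp1 at 129 CPM (92.7 to 175).

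Herpud1 and Dnajb9 stood on the other side. Herpud1 was at 120 CPM (84.8 to 164) in neutrophil-like cells, against 558 CPM (478 to 647) in non-dividing B-lineage cells of the library. Dnajb9 was at 9.46 CPM (1.95 to 27.6), from 3 UMIs, against 38.3 CPM (19.8 to 66.8), intervals that overlap. The 2 neutrophil-like cells of young replicate 3 held Calr at 51.6 CPM and Hsp90b1 at 103 CPM, from few UMIs and far below those of young replicate 1.

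The mixed myeloid cluster was divided again into 5 sub-clusters, with young replicate 1 giving 161 of 173 cells. Sub-cluster 0, led by Mpo, Prtn3, Ctsg and Elane, the genes of primary granules, held 44 cells of young replicate 1. There Calr was at 1063 CPM, Hsp90b1 at 663, Hspa5 at 531, Manf at 375 and Sdf2l1 at 242 CPM, with Herpud1 at 141 CPM. A basophil-like sub-cluster of 28 cells had Calr at 1029 CPM (901 to 1170.2), Hspa5 at 549.96 CPM and Sdf2l1 at 111 CPM (71.8 to 164). A monocyte-like sub-cluster of 35 cells had Calr at 504 CPM, Hsp90b1 at 542 CPM and Sdf2l1 at 188 CPM. Another sub-cluster was led by Bglap and Col1a1, genes of bone-forming cells. It is left unnamed, since only 1 of 7 bone-forming markers had a UMI in at least 10% of its cells. Its 39 cells had Calr at 289 CPM (229 to 360.5) and Sdf2l1 at 62.2 CPM (36.3 to 99.7), intervals that overlap those of non-dividing B-lineage cells. The 15 cells of sub-cluster 4, led by Gcnt2 and Cd7, had Calr at 284 CPM (186 to 416), which also overlaps, and Sdf2l1 at 208 CPM (125 to 324), Hspa5 at 557 CPM and Hsp90b1 at 656 CPM, which were above. All 5 had Herpud1 below the B-lineage classes of young replicate 1, at 141 to 242 CPM. The 10 genes summed to 4375 CPM in neutrophil-like cells, 3252 CPM in sub-cluster 0 and 1748 CPM in non-dividing B-lineage cells.

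**Figure D5:**
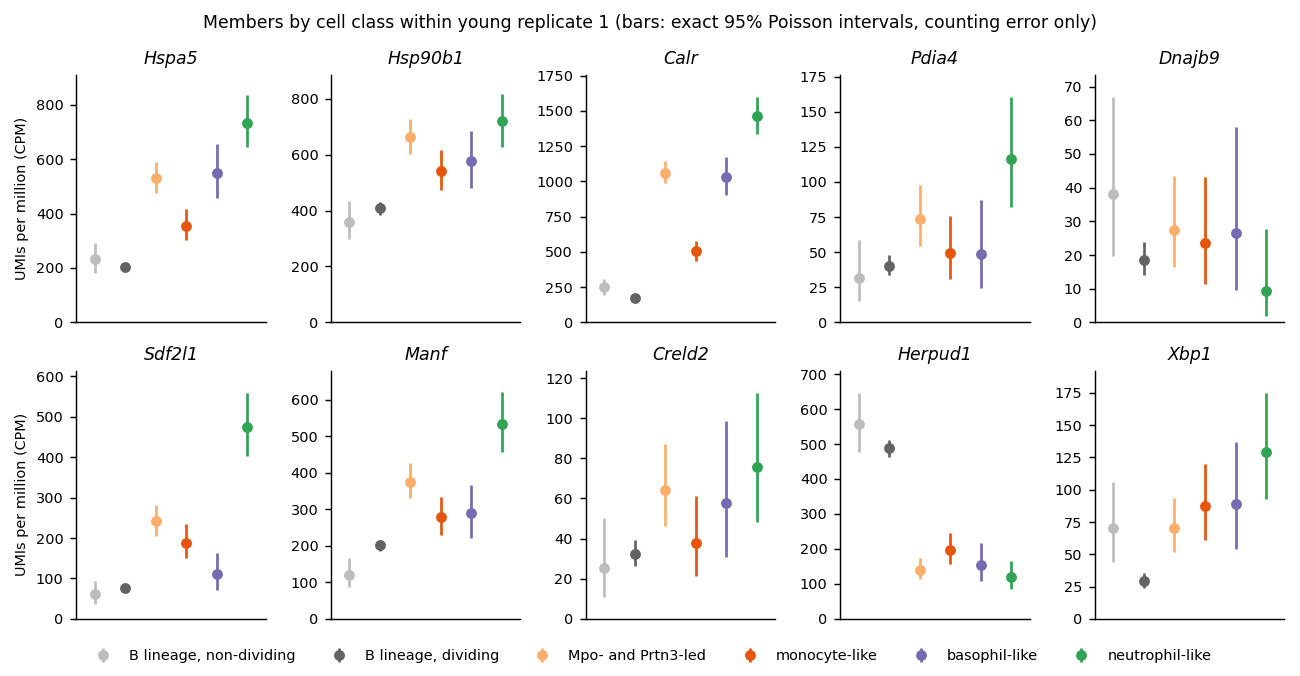
Level (CPM) of the 10 genes in the B-lineage classes, 3 myeloid sub-clusters and the neutrophil-like cells of young replicate 1, with 95% exact Poisson intervals for counting error. Calr, Sdf2l1 and Manf are highest in neutrophil-like cells (1463, 476 and 533 CPM), and Herpud1 is highest in the B-lineage cells.

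The 18 endothelial-like cells, spread over all 5 libraries, carried few UMIs of the group and were pooled. All 14 endothelial markers had a UMI there, at 29345 CPM in sum against 259 CPM in non-dividing B-lineage cells. Hspa5 was at 503 CPM (25 UMIs, 95% exact Poisson interval 326 to 743) and Calr at 524 CPM (26 UMIs, 342 to 767). Xbp1 was at 181 CPM (9 UMIs, 82.9 to 344), Dnajb9 at 141 CPM (7 UMIs, 56.7 to 290.5) and Herpud1 at 161 CPM (8 UMIs, 69.6 to 317). Sdf2l1 and Pdia4 had 1 UMI each, and at this depth no difference from the B lineage was detectable for Sdf2l1 (20.1 CPM, 0.51 to 112).

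Over the 20 sums of a library and B-lineage cluster with at least 20 cells, the summed level of the 10 genes ran from 1282 CPM in pro-B-like cells of young replicate 1 to 2923 CPM in immature-B-like cells of young replicate 2. The genes whose log2 level was most like that of the sum were Eif5 (Pearson r = 0.90), Nsf (0.90), Rgs19 (0.89), Spib (0.88), Serp1 (0.87), Lrmp (0.86), Ly6d (0.86), Fam49b (0.85), Tram1 (0.85) and Cd72 (0.84), out of 3634. With deviations from the library means they kept values between 0.82 (Cd72 and Tram1) and 0.93 (Eif5). The least like were Rps24 (-0.88), Ndufa4 (-0.84), Tspo (-0.83), Skp1a (-0.82) and Myl6 (-0.81). Within the group Calr was most like Hspa5 (0.74), Manf like Sdf2l1 (0.70) and Xbp1 like Hspa5 (0.65). Herpud1 ran against Sdf2l1 (-0.52) and Manf (-0.47), and Xbp1 also ran against Sdf2l1 (-0.48). These sums share libraries, depth and cells of one lineage, so the values are a description. The summed level weighs abundant genes most: in the B lineage the mean over libraries was 2140 CPM for the sum, 787 CPM for Herpud1 and 25.1 CPM for Creld2.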

How the data were processed

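Droplet RNA libraries of 3 young and 2 aged samples were analysed from the UMI counts per gene and barcode that the authors deposited, 1 matrix per library. Reads were processed with Cell Ranger on build mm10, per the submitters' processing notes, where edgeR 3.24.3 and DESeq2 1.22.2 under R 3.5.2 also appear with no stated role. The Cell Ranger version is not given in the sources used here. Of 3384 barcodes, 2116 with at least 500 genes, at least 1000 UMIs and at most 10% mitochondrial UMIs were kept. Symbols were matched for 27645 of 27998 identifiers.

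Cells were clustered with scanpy 1.11.5 and leidenalg 0.10.2 (2000 variable genes, 30 components, 15 neighbours, resolution 0.8), leaving out 118 genes of the endoplasmic reticulum lists and sex-linked genes. Scrublet marked 58 doublets, which stayed in except in an alternative. Counts were summed per library and class with at least 10 cells and tested with edgeR 4.0.16 (quasi-likelihood, TMM, filterByExpr, R 4.3.3), adjusted over all genes tested by Benjamini-Hochberg at 0.05. The standard error is the log2 fold change divided by the square root of F. The fits were tested on simulated counts. Alternatives changed the test (DESeq2 1.42.0), scaling, filters, depth, doublets, clustering, blocks and libraries. Those for dividing clusters and for the interaction were added after seeing the data. The 10 genes, the pathway and marker lists and the tests were chosen with earlier results of these data known. All 10 genes are named in the main comparisons, the 2 genes of smallest p on each pathway list with 3 or more measured, and the 10 most and 5 least like genes, with Ppp1r15a chosen after its value was seen. Replicate numbers 2 and 3 occur at both ages. The labels do not say that a number marks a shared batch, and in the data number 2 goes with Y-linked and number 3 with Xist transcripts.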

Additional observations from a re-analysis of the deposited data

Results flagged for a closer look

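Hspa5 was higher in dividing than in non-dividing cells in both aged libraries and lower in all 3 young ones. The log2 ratio of dividing over non-dividing CPM was -0.21, -0.63 and -0.01 in young replicates 1, 2 and 3 and was 0.21 and 0.46 in aged replicates 2 and 3, a difference of means of 0.62. Tested as an interaction over 5263 genes, it was 0.58 ± 0.25 (SE, edgeR adjusted p = 1.00) and did not pass.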

How the results depend on the processing

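For named genes, 709 of the values under alternatives kept their direction and side of the threshold, 53 lost and 2 gained a call and 44 changed sign, and of 147 counts of called members 136 stayed within 1.5 times. Members called higher in dividing cells were 3, and 1 with cells thinned to 1000 UMIs or divided by the rule per cell. The 1 called lower became 0 when thinned and 1 to 2 without 1 library. The stage test called 4, 2 when thinned and 2 to 4 without 1 library. Between dividing clusters the 1 called higher became 2 with no filter and 1 to 2 without 1 library. Genes called of all tested fell from 2575 to 801 (thinned) and 880 (rule per cell) for division, from 1024 to 290 (thinned) over stages and from 629 to 281 (DESeq2) and 241 (without young replicate 1) between dividing clusters, where thinning or the filter also left fewer genes. With no scaling beyond the total the median of all genes moved from -0.03 to -0.15 for division, and between dividing clusters from -0.03 to -0.22, with 209 genes higher and 422 lower against 327 and 302. Stages at resolution 0.5 could not be fitted, since a stage merged.

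Sign changes were of values with no call. In dividing over non-dividing cells, with no scaling, thinned and by the rule per cell, Hspa5 was -0.05, -0.05 and -0.15, and Pdia4 was -0.03 with no scaling and -0.07 by the rule. Manf between dividing clusters was -0.14 with no scaling and the Hsp90b1 interaction 0.02. For age in non-dividing cells Pdia4 was 0.12 (thinned), Xbp1 0.03 (at least 2000 UMIs) and Dnajb9 0.02 (no scaling), 0.01 (doublets out), 0.09 (at least 2000 UMIs) and 0.08 (thinned). For age in dividing cells Herpud1 was 0.03 (no scaling) and 0.01 (at least 2000 UMIs), Manf 0.25 (thinned) and Dnajb9 -0.19 (DESeq2). Leaving out 1 library in turn gave these ranges: Hspa5 -0.09 to 0.22, Pdia4 -0.04 to 0.21 and Calr -0.13 to 0.08 for division, Hsp90b1 -0.67 to 0.02 and Manf -0.11 to 0.27 between dividing clusters, and Pdia4 -0.42 to 0.11, Hsp90b1 -0.18 to 0.10 and Dnajb9 -0.37 to 0.31 for the interaction. For age they were Xbp1 -0.50 to 0.25 and Dnajb9 -0.75 to 0.46 in non-dividing cells, and Hspa5 -0.01 to 0.60, Calr -0.16 to 0.27, Herpud1 -0.22 to 0.10 and Dnajb9 -0.59 to 0.41 in dividing cells. The cause of these changes was not tested.

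The replicate number also separates libraries with Y-linked transcripts (number 2) from those with Xist, so a block by number and one by sex cannot be told apart for numbers 2 and 3. Under a block by replicate number, 22 genes in non-dividing and 7 in dividing cells were called for age against 0, with no filter 13 and 8, and 0 members in each. Under the block Calr was -0.17 and Dnajb9 -0.63 in dividing cells, and the member of lowest adjusted p was Hspa5 in non-dividing cells (-0.63, edgeR adjusted p = 0.057). Deviations of the same-numbered libraries correlated at 0.26 and 0.18 (non-dividing) and 0.12 and 0.04 (dividing), from 2 pairs. The deviations of the 2 aged libraries from their mean mirror each other, so the pairs are not independent. Aged replicate 3 with young replicate 1, of unlike number, gave 0.05 (non-dividing) and 0.06 (dividing). These values cannot decide whether a number marks a shared batch. Depth limits Sdf2l1, Creld2 and Pdia4 most.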
